A study of Mus musculus with 1 sample.

Results

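The 9 genes of Wnt signalling and stem cell biology were followed through single cells of mouse gastric organoids: the receptors Lgr5 and Lgr4, the ubiquitin ligases Rnf43 and Znrf3, the feedback genes Axin2 and Sp5, and the target and stem cell genes Cd44, Lrig1 and Tnfrsf19. They were chosen by name from the gene names of the deposited matrix, and 9 of 32285 genes were members. Gastric organoids are stomach epithelial cells grown in culture. The labels give 1 sample, with genotype wild type, treatment none and cell type epithelial cell, from cultures taken on day 7 and made into single cells with 0.05% trypsin-EDTA (30 min, 37 °C). The labels used here give no mouse strain, age, number of animals, organoid line or culture medium, and the other genotypes named in the series text were not analysed here. With 1 library there was no replicate, so no difference was tested, and each 95% interval covers counting error only.

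In Wnt signalling, a Wnt ligand binds a Frizzled receptor and an Lrp co-receptor, a complex that degrades beta-catenin is switched off, and beta-catenin enters the nucleus and turns on target genes together with factors of the TCF/LEF family. Rnf43 and Znrf3 remove Frizzled receptors from the cell surface, and R-spondins, secreted proteins that bind Lgr4 and Lgr5, clear these ligases and so raise the response to Wnt. Axin2 and Sp5 are themselves Wnt targets that dampen or reshape the response, and in the stomach Lgr5, Axin2, Lrig1 and Tnfrsf19 are known as markers of stem or progenitor cells of the glands.

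The library held 20236916 gene UMIs (unique molecular identifiers, a count of tagged transcript ends) in 1991 barcodes. Of these, 1892 were kept as cells because they had at least 500 genes and at most 20% mitochondrial UMIs, with a median of 8512.5 UMIs per cell (890 to 47183). Epithelial keratins marked the cells (Krt18 had a UMI in 99.6% of cells). Markers of fibroblasts, endothelium, immune cells and smooth muscle were at or near 0 apart from Cd68 (9.74 CPM, UMIs per 1000000 gene UMIs) and Vim (2.88 CPM). No cell type known to lack these 9 genes was identified in the culture, so the part of their UMIs that came from free RNA in the droplets was not estimated, and a UMI in a cell is given below as detection, not as expression by that cell.

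Promoter windows, the 250 bases before a start site in RefSeq (build GRCm38.p6), were found for 7 of the 9 genes, at 9 start sites. They were searched on both strands for CTTTGAT and CTTTGAA, letters that the TCF/LEF factors are known to bind, and 2 of the 9 windows held a match, beside 7.48% of all 32851 windows in the table. Both windows with a match are shown, in whole or in part. They belong to Sp5 and Tnfrsf19, which are also the pair with the highest unthinned co-detection ratio below, and a link between match and co-detection was not tested. The first is the whole Sp5 window, at chr2:70474673-70474922 on the plus strand. The second is a 27-base stretch of the window at the second Tnfrsf19 start site, at chr14:61038173-61038199 on the minus strand. That Tnfrsf19 window overlaps an annotated exon, so only the stretch around the match is shown. Capitals mark the match, which lies 104 bases before the Sp5 start on the gene's own strand and 202 bases before the Tnfrsf19 start on the opposite strand.
Sp5: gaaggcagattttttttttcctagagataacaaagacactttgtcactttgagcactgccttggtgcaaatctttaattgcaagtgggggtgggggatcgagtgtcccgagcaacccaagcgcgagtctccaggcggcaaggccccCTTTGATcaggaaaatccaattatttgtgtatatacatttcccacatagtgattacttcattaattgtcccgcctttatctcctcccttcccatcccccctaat
Tnfrsf19: tgaatgggggATCAAAGtgacaaacta
The letters are a description of these windows and not evidence of binding. No match was found in the windows of Lgr4, Axin2, Rnf43, Cd44 and Lrig1 or at the first Tnfrsf19 start site, which says only that the letters are not there.

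Transcripts of all 9 genes were found, and each was scarce. The 9 genes held 3004 UMIs in the kept cells, or 149 CPM, which is 0.0149% of gene UMIs. Because the assay counts transcript ends, the CPM of different genes are compared below without division by length.

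Of the 2 receptors, Lgr4 was the more abundant. Lgr5 (chromosome 10, 115450311 to 115587780) had 91 UMIs and a level of 4.52 CPM (95% interval 3.64 to 5.55). Lgr4 (chromosome 2, 109917647 to 110014257) had 451 UMIs and a level of 22.4 CPM (20.4 to 24.6). Lgr5 had the lowest level of the 9 genes, with an interval that overlapped that of Tnfrsf19, and the Lgr4 interval lay above it. A UMI of Lgr5 was found in 86 of 1892 cells (4.55%), and 82 of these 86 held 1 UMI only. Lgr4 was found in 372 cells (19.7%), and 68 of them held 2 or more UMIs.

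The ligases were unequal. Rnf43 (chromosome 11, 87662722 to 87735539) had 576 UMIs and a level of 28.6 CPM (26.3 to 31.1). Znrf3 (chromosome 11, 5276324 to 5444847) had 142 UMIs and a level of 7.06 CPM (5.95 to 8.32). Rnf43 was thus among the most abundant members and Znrf3 among the least, with intervals that did not overlap. Rnf43 was found in 432 cells (22.8%) and Znrf3 in 134 (7.08%).

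Of the feedback genes, Axin2 was above Sp5. Axin2, a scaffold of the complex that degrades beta-catenin (chromosome 11, 108920349 to 108950783), had 378 UMIs and a level of 18.8 CPM (16.9 to 20.8). Sp5, a zinc-finger transcription factor (chromosome 2, 70474923 to 70477729), had 151 UMIs and a level of 7.51 CPM (6.36 to 8.80). Axin2 was found in 318 cells (16.8%) and Sp5 in 134 (7.08%). The level of Sp5 could not be told from that of Znrf3 by their intervals.

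Among target and stem cell genes, Cd44 had the highest level of all 9. Cd44, a receptor for hyaluronan (chromosome 2, 102811141 to 102901665), had 642 UMIs and a level of 31.9 CPM (29.5 to 34.5). Lrig1, a membrane protein that limits receptors of the epidermal growth factor family (chromosome 6, 94604529 to 94700158), had 464 UMIs and 23.1 CPM (21.01 to 25.3). Tnfrsf19, also called Troy, a receptor of the tumour necrosis factor family (chromosome 14, 60963875 to 61046490), had 109 UMIs and 5.42 CPM (4.45 to 6.54). The order of levels was therefore Cd44, Rnf43, Lrig1, Lgr4, Axin2, Sp5, Znrf3, Tnfrsf19 and Lgr5. Neighbours in that order had overlapping intervals, except between Rnf43 and Lrig1 and between Axin2 and Sp5. At the second gap 5 genes at 18.8 CPM or more stood apart from 4 genes at 7.51 CPM or less.

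Some of these gene models overlap others, and whether counting used strand is not given in the sources used here. Rnf43 overlaps 1110028F11Rik on the same strand (10 UMIs) and Lrig1 overlaps Slc25a26 on the opposite strand (79 UMIs). Genes on the opposite strand to Lgr5, Axin2 and Tnfrsf19 had 0, 0 and 1 UMIs.

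**Figure D1:**
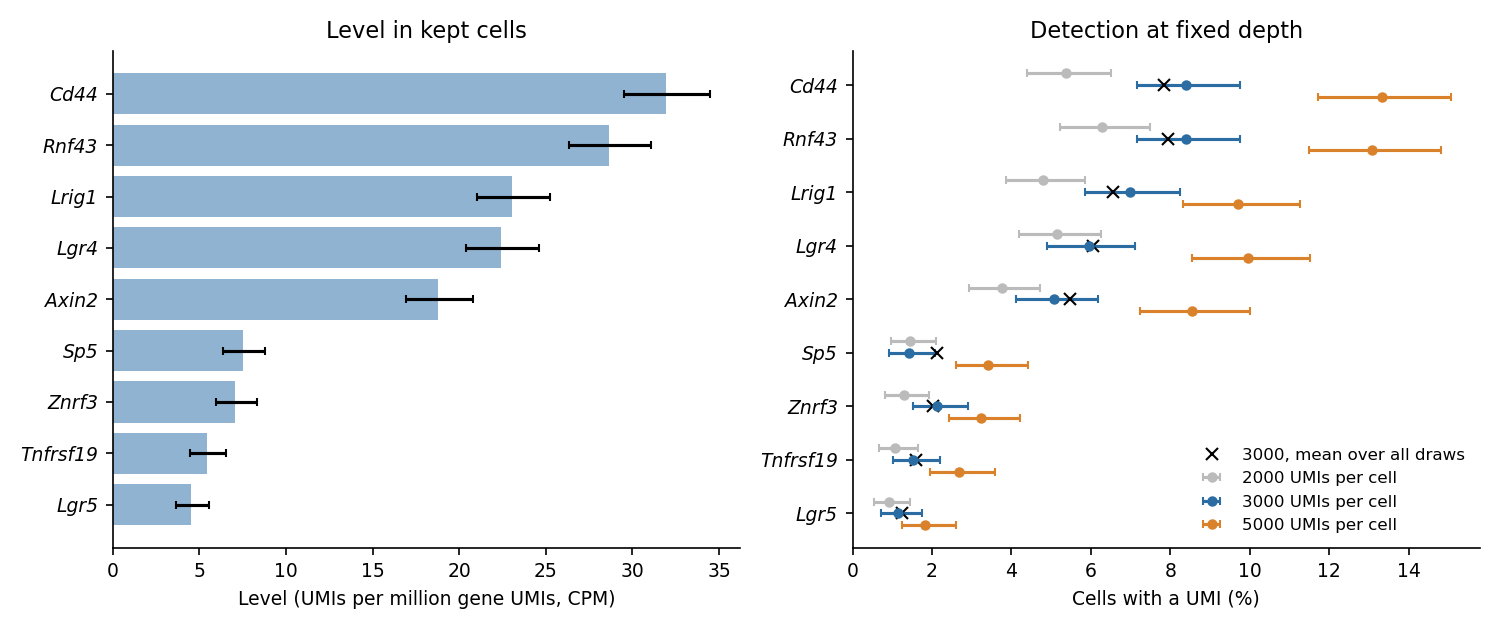
Left, level of each of the 9 genes in the 1892 kept cells, in UMIs per 1000000 gene UMIs (CPM), with 95% Poisson intervals. Right, percent of cells with a UMI after each cell was thinned to 2000, 3000 or 5000 UMIs, with 95% binomial intervals and, as crosses, the mean over all draws at 3000. The 5 genes from Cd44 to Axin2 lie above 18 CPM and the other 4 below 8 CPM, and detection rises with depth for 8 of the 9 genes and from 3000 to 5000 UMIs for all of them.

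Detection followed depth, so it was also read after each cell was thinned to 3000 UMIs, which kept 1835 cells and left out 57 shallower ones. Cells with a UMI of a member had a median depth of 11903 to 14686.5 UMIs by gene, and cells without one 7705 to 8340. At 3000 UMIs, Rnf43 and Cd44 were each found in 8.39% of cells (7.16 to 9.76), Lrig1 in 6.98%, Lgr4 in 5.94% and Axin2 in 5.07%. Znrf3 was found in 2.13%, Tnfrsf19 in 1.53%, Sp5 in 1.42% and Lgr5 in 1.14% (0.710 to 1.74). The order by detection thus kept the gap between the same 5 and 4 genes. The mean over all possible draws of 3000 UMIs gave 1.23% for Lgr5, 2.13% for Sp5 and 7.84% for Cd44, so Sp5 was low in the draw used and moved by over 1.5 times.

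Cd44 had the most uneven counts across cells of the 5 members that could be measured. At 3000 UMIs its variance over its mean was 1.33, higher than that of 94.4% of the 6873 genes with at least 50 UMIs at that depth. The same ratio was 1.06 for Lgr4, higher than for 66.5% of those genes, 1.02 for Rnf43, 0.990 for Axin2 and 0.960 for Lrig1, beside a median of 1.03 over those genes. A ratio of 1 is what random sampling from an even level would give, and the other 4 members had too few UMIs at this depth for the measure. Cd44 reached 9 UMIs in 1 cell, Rnf43 and Lrig1 5, Lgr4 4 and the others 3. Of 41 cells with 3 or more Cd44 UMIs, whose median depth was 18545 UMIs, 19 were in cluster 1 and none in cluster 2 of the clusters described below.

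At 3000 UMIs, 616 of 1835 cells (33.6%) had a UMI of at least 1 of the 9 genes. Of these, 495 cells had 1 member, 106 had 2, 15 had 3 and none had 4 or more. The product of the 9 shares gave 526, 97.0, 9.80 and 0.615 cells. In all, 121 cells had 2 or more members against 107 from the shares, and this difference was not tested. Without thinning, 619 of 1892 cells had no member UMI and 4 cells had 7 of the 9 genes.

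Summed over pairs, at 2000, 3000 and 5000 UMIs and without thinning, the members were seen together 1.05 to 1.16 times as often as their shares gave. The 9 genes form 36 pairs, and at 3000 UMIs the pairs were seen together 151 times in all against 130 from the product of shares, a ratio of 1.16 (0.982 to 1.36). Over all possible draws the ratio was 1.10. It was 1.05 (0.826 to 1.32) at 2000 UMIs, 1.15 (1.03 to 1.27) at 5000 UMIs and 1.08 (1.03 to 1.13) without thinning, and the intervals of the last pair of values left out 1. All of these intervals are too narrow, since 1 cell with 3 genes enters 3 pairs. At 3000 UMIs 10 pairs had at least 5 cells from the product of shares, and 8 of those 10 had a ratio above 1, but none had an interval that left out 1. The median ratio of the 10 pairs was 1.26, beside 1.01 for members with other genes at that depth, and this difference was not tested.

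A ratio of 1.5 or more was set as past the threshold, and 1 of the 10 pairs passed it. Among members paired with every other gene that had enough cells, 5.42% were past it. Lgr4 and Cd44 shared 15 cells against 9.15, a ratio of 1.64 (0.918 to 2.70). This call depended on the draw: over all possible draws that pair had a ratio of 1.11, and 0 of 10 pairs passed 1.5. Among these 10 pairs, the highest ratios over all draws were 1.42 for Axin2 with Rnf43 and 1.40 for Rnf43 with Lrig1. The lowest of the 10 was 0.934 for Cd44 with Lrig1. Another 7 pairs never shared a cell at 3000 UMIs, of which the product of shares gave at most 2.35 cells, so their absence was within what the depth allows.

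Without thinning, with the expected cells summed over 10 bins of depth, all 36 pairs could be read. Lgr5 and Lgr4, the receptor pair, shared 32 cells against 26.0, a ratio of 1.23 (0.843 to 1.74). Lgr5 and Axin2 shared 27 against 19.8, a ratio of 1.36 (0.897 to 1.98). Axin2 and Rnf43 shared 107 against 88.8, a ratio of 1.20 (0.987 to 1.46). Each of these intervals included 1. The ratio was above 1 in 26 of the 36 pairs, with a lowest ratio of 0.812. For members with other genes the median ratio was 1.02, so most of those pairs were above 1 as well. The interval of 1 pair left out 1.

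That pair was Sp5 and Tnfrsf19, the genes whose windows are printed above. They shared 19 cells against 9.89, a ratio of 1.92 (1.16 to 2.999), and this was the only pair past 1.5 without thinning. At 3000 UMIs they shared 0 cells against 0.397, too few to read, and over all possible draws at that depth the ratio was 1.41. Of members paired with other genes in the same way, 2.12% were past it, and 1 of 36 pairs is close to that share. The 19 cells were deep, with a median of 19891 UMIs, and 11 were in cluster 1, 4 in cluster 7 and none in clusters 2 and 4. Under the tag CMO301 the ratio was 2.46 (1.27 to 4.29, 12 cells) and under CMO302 it was 1.74 (0.701 to 3.59, 7 cells). The pair was singled out after its values were seen. Without thinning the median of the 36 pairs had a ratio of 1.09, beside 1.02 for members with other genes.

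**Figure D2:**
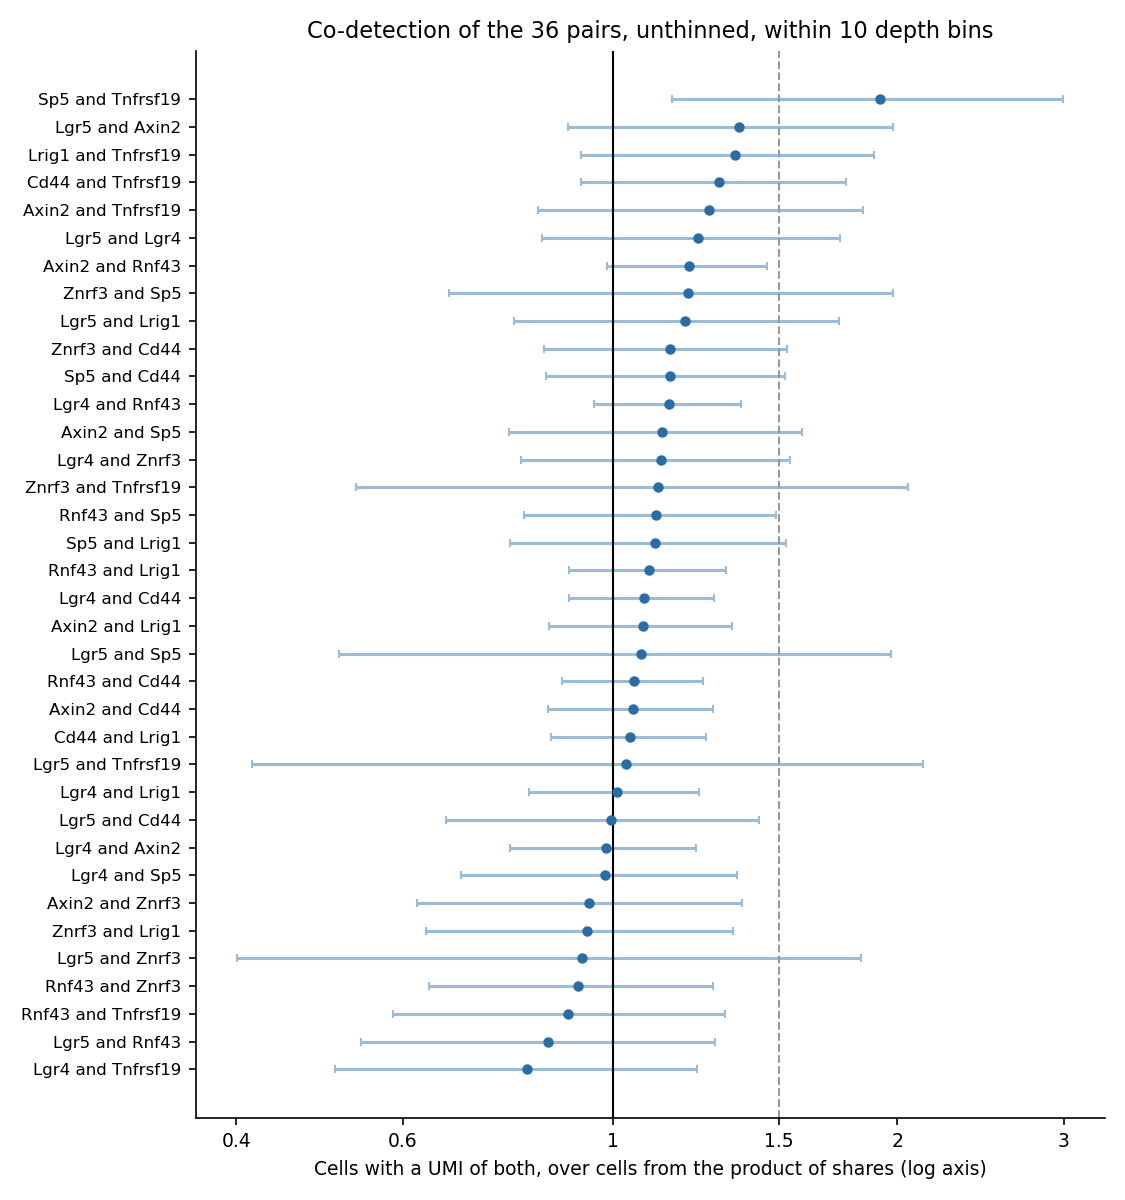
Cells with a UMI of both genes divided by the cells that the product of their shares gives, for the 36 pairs, unthinned and within 10 bins of depth, on a log axis, with 95% Poisson intervals. The solid line is 1 and the dashed line 1.5; the interval of Sp5 and Tnfrsf19 (1.16 to 2.999) is the one that leaves out 1.

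Genes that vary with the members across cells were sought among 2848 genes found in at least 10% of cells at 3000 UMIs. The largest Pearson r with any member was 0.122, between Rnf43 and Rassf9 (0.130 in cells with tag CMO301, 0.112 with CMO302), and Rnf43 with Tmem176b had 0.111 (0.103 and 0.120). All points share 1 library and 1 depth. In counts this sparse a correlation of that size is no finding, and 8 of the 9 members had no gene that met the same limit in the cells of each tag.

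Cd44 was higher in cycling cells. Cells with a UMI of Mki67 or Top2a at 3000 UMIs, genes made in dividing cells, were taken as cycling, which gave 238 cycling and 1597 other cells (12.97% cycling) with median depths of 9937 and 8577 UMIs. The level of Cd44 was 50.6 CPM (42.8 to 59.4) in cycling and 28.5 CPM (26.0 to 31.1) in other cells, a ratio of 1.78 (1.47 to 2.14). At 3000 UMIs it was found in 14.7% of cycling and 7.45% of other cells. The median ratio was 1.10 over all genes tested and 1.08 over the 9 members.

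The 3 members Cd44, Lgr5 and Tnfrsf19, were past a fold of 1.5 towards cycling cells, beside 12% of all genes tested, and none was past it towards other cells, beside 2.7%. Lgr5 was at 6.84 CPM against 4.16 CPM, a ratio of 1.65 (0.948 to 2.73). Tnfrsf19 was at 7.86 CPM against 5.03 CPM, a ratio of 1.56 (0.941 to 2.498). Both rest on 20 and 23 UMIs in cycling cells, and their intervals included 1, so Cd44 was the one member whose difference was larger than counting error. Divided by the median of all genes, 2 of 9 members passed the fold, beside 8.09% of all genes divided in the same way. The ratios of the other 6 ran from 0.902 for Znrf3 to 1.17 for Lrig1, with Axin2 at 0.937 and Rnf43 at 1.01.

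**Figure D3:**
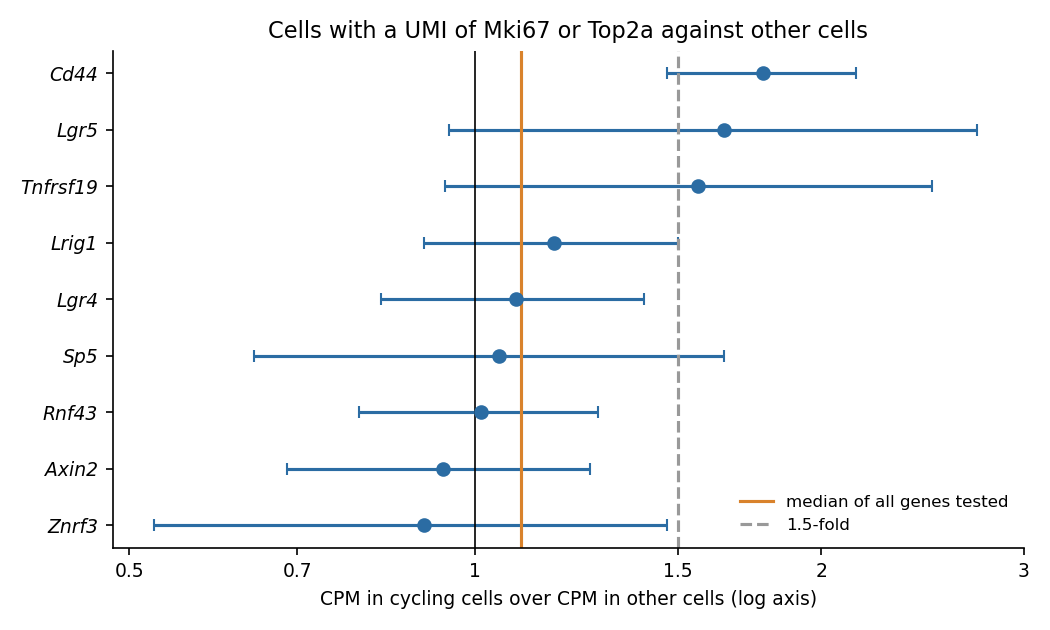
Level (CPM) in the 238 cycling cells divided by the level in the 1597 other cells for each of the 9 genes, on a log axis, with 95% intervals for counting error. Vertical lines mark 1, the median of all genes tested (1.10) and 1.5; the interval of Cd44 (1.47 to 2.14) is the one that does not reach 1.

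The cells formed 7 clusters, numbered by size and made without the 9 genes, the other Wnt pathway genes, cell cycle genes, sex-linked genes and mitochondrial genes. Clusters are kept by number and not named as cell types. They differed in depth, with median UMIs per cell of 11334, 6282, 12546, 6900, 7743, 11695 and 14281 for clusters 1 to 7, and levels below are CPM, which divide by depth. All 9 genes were past a fold of 1.5, in either direction, in at least 1 cluster against the other cells, beside 74.3% of all genes and 82.4% of genes in the members' range of 91 to 642 UMIs, so nothing is read from that count.

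Cluster 2 (405 cells, led by AC168977.1, 2610528A11Rik and Mt1) had the lowest sum of the 9 genes. It had the lowest level of 6 of them, while Lgr4 was lowest in cluster 5, and Axin2 and Lrig1 in cluster 7. The 9 genes summed to 78.6 CPM there against 162 CPM in other cells, a ratio of 0.486 (0.424 to 0.556). In this cluster 8 of 9 members were lower by 1.5 or more, beside 28.8% of all genes and 31.8% of genes in the members' range, and none was higher, beside 2.98%. Rnf43 was at 11.5 CPM (7.94 to 16.03) against 31.6 CPM, and Cd44 at 13.2 CPM (9.35 to 18.0) against 35.2 CPM. Lgr5 had 5 UMIs there and Tnfrsf19 had 6, at ratios of 0.336 and 0.337. Znrf3 rested on 13 UMIs, at a ratio of 0.583 (0.302 to 1.03) whose interval included 1, unlike those of the other 7 lower members. Lgr4, at 18.9 CPM against 23.0 CPM, was the member not past the fold, with a ratio of 0.820 (0.609 to 1.09).

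The shift touched many genes in cluster 2. The median ratio of all genes tested was 0.814 and that of the 9 members 0.374, and 25.4% of genes, beside 6 of the 9 members, had their lowest level in this cluster. After division by that median, 6 of 9 members were lower by 1.5 or more, beside 14.7% of all genes divided in the same way, without Axin2 (0.553 before division) and Znrf3 (0.583). Its cells were the shallowest of the 7 clusters, had the highest share of ribosomal protein UMIs (36.5%), and 6.84% of them were cycling. The part of these differences in the result was not tested. Cluster 2 was singled out after its values were seen, in place of an earlier rule by Mt1 level that had taken cluster 7.

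Cluster 1 (423 cells, led by Cxcl2, Cxcl5 and Nav3) had the highest sum, 203 CPM against 129 CPM, a ratio of 1.57 (1.46 to 1.69). In all, 4 members were higher by 1.5 or more, beside 12.5% of genes, and none was lower, beside 5.15%. Tnfrsf19 was at 9.84 CPM (7.39 to 12.8) against 3.76 CPM, a ratio of 2.62 (1.76 to 3.88). Cd44 was at 47.2 CPM against 26.2 CPM, Rnf43 at 40.6 CPM against 24.1 CPM and Lrig1 at 33.0 CPM against 19.3 CPM. Lgr5 (ratio 1.12, interval 0.689 to 1.79) and Axin2 (ratio 1.41, interval 1.14 to 1.75) were not past the fold, and the median ratio of all genes there was 1.11.

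Cluster 4 (341 cells, led by Aox3, Scgb3a1 and Mmp7) set Rnf43 against Cd44. Rnf43 reached its highest level there, 46.4 CPM (38.6 to 55.3) against 25.9 CPM, a ratio of 1.79 (1.45 to 2.19). Cd44 was low, at 22.1 CPM (16.8 to 28.5) against 33.4 CPM. Lgr5 was at 6.73 CPM from 18 UMIs, a ratio of 1.61 (0.903 to 2.72) whose interval included 1. In all, 2 members were higher, beside 2.54% of genes, and 1 was lower, beside 19.1%.

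Cluster 3 (341 cells, led by Ly6m and Sprr1a) had no member higher, beside 8.16% of genes, and 2 lower, beside 10.3%. These were Sp5, at 5.18 CPM with a ratio of 0.631 (0.390 to 0.982), and Tnfrsf19, at 3.24 CPM with a ratio of 0.533 (0.287 to 0.924). Cluster 5 (228 cells, led by Psca and Prss22) had no member higher, beside 3.39%, and 4 lower, beside 22.7%. Lgr4 (14.4 CPM, ratio 0.619), Rnf43 (17.8 CPM, 0.596) and Lrig1 (14.9 CPM, 0.622) had intervals that left out 1, and Lgr5 rested on 6 UMIs.

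Cluster 6 (91 cells, led by Aspm, Dlgap5 and Knl1) was 80% cycling by the rule above. There 3 members were higher, beside 13.5% of genes, and none lower, beside 9.74%. Cd44 had its highest level, 51.7 CPM (39.9 to 65.9), a ratio of 1.69 (1.29 to 2.19), while Lgr5 and Sp5 rested on 9 and 14 UMIs with intervals that included 1. Cd44 was past the fold in this cluster and in cluster 1, where 12.5% of cells were cycling. In cluster 7, where 35.5% of cells were cycling, Cd44 was not past it (ratio 1.31, 0.935 to 1.79). That interval held the cluster 6 ratio of 1.69, so a difference between clusters 6 and 7 is not shown. The part of cycling in the Cd44 levels of the clusters was not tested.

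Cluster 7 (63 cells, led by Cyba and Reg3g) stood apart by Y-linked genes, at 68.7 CPM and at most 2.36 CPM in other clusters. Here 2 members were higher, beside 23% of genes, and 2 lower, beside 18.7%, so the members' share was near that of all genes. Lgr4 was at 34.3 CPM (23.9 to 47.8), a ratio of 1.58, and Sp5 at 14.7 CPM (8.24 to 24.3), a ratio of 2.07 (1.13 to 3.53). Axin2 and Lrig1 were each at 9.81 CPM from 10 UMIs. Without cluster 7 the levels of Sp5 and Cd44 in all cells were 7.12 and 31.4 CPM, close to the values with it.

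**Figure D4:**
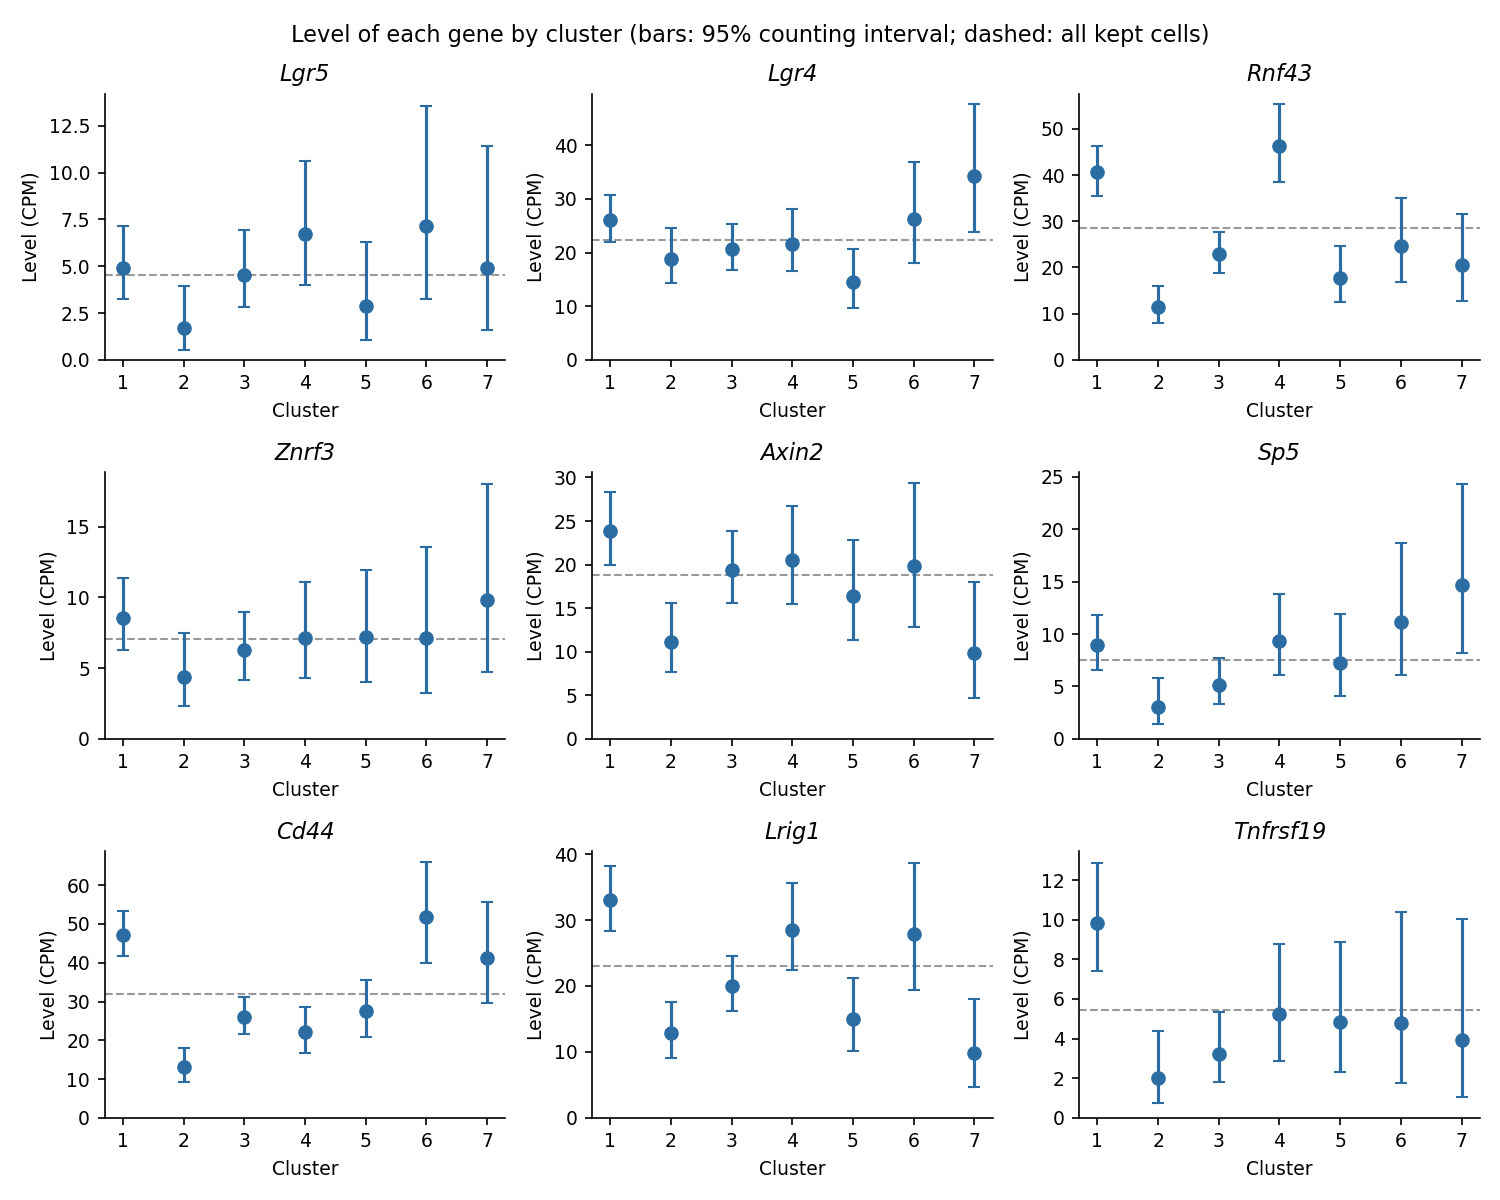
Level (CPM) of each of the 9 genes in clusters 1 to 7, with 95% Poisson intervals, and the level in all kept cells as a dashed line; axes start at 0 and differ between panels. Cluster 2 is lowest for 6 of the 9 genes, Rnf43 is highest in cluster 4 and Tnfrsf19 in cluster 1.

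The library was marked with multiplexing tags, and 1062 cells were led by CMO301 and 830 by CMO302. The labels do not say what the tags mark. The 9 genes summed to 147 CPM under CMO301 and 152 CPM under CMO302, a ratio of 0.969 (0.901 to 1.04). Of the 9 members, 2 were past the fold, beside 2.65% of all genes and 1.81% of those in the members' range. Sp5 was at 9.31 CPM under CMO301 and 5.25 CPM under CMO302, a ratio of 1.77 (1.25 to 2.56), and Tnfrsf19 at 4.39 and 6.70 CPM, a ratio of 0.655 (0.440 to 0.971). Sp5 and Tnfrsf19 therefore differed between the tags in opposite directions, on 104 and 47 UMIs and on 49 and 60 UMIs.

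Other genes of the pathway were read from lists. The ligands of Lgr4 and Lgr5 were not seen: Rspo1, Rspo2, Rspo3 and Rspo4 had 0 UMIs in 1892 cells, which at this depth limits the share of cells with a UMI to 0.159% for each and does not limit the share that express it, and the third receptor Lgr6 had 2 UMIs. Of 19 Wnt ligands, 10 had no UMI and 2 had at least 50, Wnt7b with 1120 UMIs (55.7 CPM) and Wnt4 with 130 (6.46 CPM). The genes that acylate and export Wnt proteins were present, Wls with 72.9 CPM and Porcn with 12.4 CPM. Of 12 Frizzled and co-receptor genes, on which Rnf43 and Znrf3 act, 9 had at least 50 UMIs. Lrp6 was the highest of the 12 with 642 UMIs, and Fzd10 the lowest with 1.

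Inside the cell, all 9 genes of the Dishevelled and destruction complex list had at least 50 UMIs, with Csnk1a1 highest (271 CPM) and Dvl2 lowest (4.27 CPM). Of 8 TCF/LEF factors and co-activators 5 did, with Tcf7l2 highest (32.7 CPM), Lef1 at 3 UMIs and Pygo1 at 0. Of 13 Wnt inhibitors besides the members, 1 did, Kremen1 with 121 UMIs, and 4 had none. Notum had 44 UMIs and Nkd1 had 2, both below each of the 9 members. Of 8 further genes known as Wnt targets 5 had at least 50 UMIs, with Ccnd1 highest (432 CPM), Prox1 at 1 UMI and the intestinal stem cell gene Olfm4 at 0. Among 10 other gastric stem or progenitor markers, Aqp5 had 23007 UMIs and Cckbr none.

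For cluster 2, chosen after the members' values were seen, the lists are given by their counts of genes with at least 50 UMIs, beside the 28.8% of all genes that were lower by 1.5 or more. Differences between lists were not tested, and some lists hold 1 or 2 such genes. Lower were 8 of 9 members, 5 of 9 Frizzled and co-receptor genes, 4 of 5 further targets, 3 of 6 gastric stem or progenitor markers, both Wnt ligands, both secretion genes and the 1 inhibitor. Outside the pathway, 5 of 7 proliferation genes (median ratio 0.528), 2 of 4 pit cell markers, 1 of 1 mucous neck marker, 1 of 1 chief cell marker and 1 of 5 epithelial markers (median ratio 0.919) were lower. The pit cell marker Gkn1 (ratio 2.35) and the immune marker Cd68 (1.98) were higher, and the fibroblast marker Vim was not past the fold. In the TCF/LEF list 1 of 5 was lower, and in the Dishevelled and destruction complex list 0 of 9. The median ratio was 0.374 for the members, 0.429 for further targets, 0.664 for the Frizzled list, 0.726 for the TCF/LEF list and 0.802 for the destruction complex list, beside 0.814 for all genes.

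In cycling cells, where 12% of all genes were higher and 2.7% lower, the lists were counted in the same way. Higher were 1 of 9 Frizzled and co-receptor genes, 1 of 2 Wnt ligands (Wnt4, ratio 2.44), 1 of 5 TCF/LEF genes (Tcf7, 1.65) and 2 of 6 gastric stem or progenitor markers. In the lists of further targets, the destruction complex, inhibitors and secretion genes none of 5, 9, 1 and 2 was higher, and Porcn was lower (0.652). Markers of other cell types were also higher in cycling cells, namely 2 of 4 pit cell markers (Muc5ac, ratio 9.69, and Tff1, 1.98) and the fibroblast marker Vim (1.56). These are ratios over pooled cells, not co-detection with Cd44, and the part of these markers in the members' ratios was not tested.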

How the data were processed

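The deposited values are counts, whole-number UMIs per gene and barcode, which the authors made with Cell Ranger 6.1.2, per the file headers and the submitters' processing notes, on GRCm38. The extract protocol names a 10x 3' kit. Tags were kept out of gene totals. From the counts, CPM, shares of cells and ratios were computed, with exact Poisson, Clopper-Pearson and conditional binomial intervals at 95%. Depth per library is given above. The thinned share uses 3000 UMIs per cell. Clusters were made with scanpy 1.11.5 and leidenalg 0.10.2 (2000 variable genes, 30 principal components, 15 neighbours, resolution 0.6, seed 0). Doublets were kept, and Scrublet, which called 12 cells, was an alternative. Folds of 1.5 were read on genes with at least 50 UMIs. Coordinates are from GENCODE M21. The steps were checked on simulated data.

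Members, gene lists and most comparisons were chosen with earlier results of these data known. Genes named are the 9 members, the highest and lowest of each pathway list, those with no UMI by count, Mki67 and Top2a, leading genes of clusters by fold, and genes with r of at least 0.1 in the cells of each tag. Further pathway genes (Notum, Nkd1, Lgr6, Porcn, Cd68, Vim, Lef1, Olfm4, Pygo1, Cckbr, the R-spondins, Wnt4, Tcf7, Gkn1, Muc5ac, Tff1, Krt18) were named after their values were seen, as were the promoter windows, the draw average, the division by the median gene and the background in the members' UMI range.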

Additional observations from a re-analysis of the deposited data

Results flagged for a closer look

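The 99 barcodes that the cell filter removed held 16 UMIs of the 9 genes among 118582 gene UMIs. That is 135 CPM, beside 149 CPM in kept cells, and these UMIs enter no comparison above except where the filter was lifted.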

How the results depend on the processing

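Across 18 other settings, 61 summary values kept their value within 1.5 times or within counting error and 13 moved. The share of cells with any member was 26.4% at 2000 and 48.3% at 5000 UMIs. The number of pairs with at least 5 expected cells differed by setting. Past a ratio of 1.5 were 1 of 10 as reported, 0 of 4 at 2000 UMIs and 2 of 20 at 5000 UMIs. With at least 1000 genes and at most 10% mitochondrial UMIs it was 2 of 10, and over all draws 0 of 10. By tag it was 0 of 5 under CMO301 and 1 of 1 under CMO302. The ratio of Lgr4 and Cd44 was 0.829 at 5000 UMIs, in the opposite direction. Among members with other genes, the share past that ratio was 4.74% to 5.54% in the settings with a single draw. Members past the fold towards cycling cells numbered 3 as reported, 1 of the 8 tested in cells with tag CMO301 (11.98% of all genes), 1 with S or G2/M scores (8.86%) and 0 at a fold of 2 (3.90%); the ratio of Cd44 ranged from 1.62 to 1.89. Members lower in the cluster matched to cluster 2 numbered 8 as reported, 5 of the 7 tested in cells with tag CMO302 (30.1% of all genes), 5 of 9 at a fold of 2 (11.4%) and 5 of 9 at resolution 0.3 (17.1%). Settings by tag hold fewer UMIs, so fewer members reached the 50 UMIs needed, and otherwise the cause was not tested. Of single genes and pairs, 241 values stayed, 26 moved and 1 reversed. The low counts of Lgr5, Tnfrsf19, Znrf3 and Sp5 limit what can be read in clusters 6 and 7. No paired analysis was possible because the series has a single library here.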
